A study of Saccharomyces cerevisiae with 48 samples.

Results

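The mRNA decay and deadenylation factor genes examined here were 10 genes chosen by name for their function: XRN1 (YGL173C), DCP1 (YOL149W), DCP2 (YNL118C), PAT1 (YCR077C), DHH1 (YDL160C), LSM1 (YJL124C), CCR4 (YAL021C), POP2 (YNR052C), CDC39 (YCR093W) and PAN2 (YGL094C). They were 10 of the 6465 gene intervals counted in Saccharomyces cerevisiae, and all 10 passed the filter of a mean of at least 10 T>C reads over the 48 libraries, as did 5118 genes in all. The study followed newly made RNA by SLAM-seq, in which 4-thiouracil (4tU) is built into new RNA and alkylation then makes it read as C in place of T. A T>C read is one with at least 2 such conversions. Its T>C count stands for RNA made in the labelling time, and the total read count for the whole mRNA pool.

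All strains carried OsTIR1, the plant F-box protein of the auxin degron system, driven by the GPD1 promoter, together with BDF1 and BDF2 genes that each end in a 3xV5-mAID tag. Bdf1 and Bdf2 are the BET proteins of budding yeast. The cultures were given 1 mM of the auxin IAA for 3 h, which sends the tagged proteins to degradation, or its solvent DMSO, and then 5 mM 4tU. The labels give 6 min of 4tU and the study's methods a shorter time, and the sources used here do not settle which is right. RDY73 had no further BDF1 gene. The other strains carried one more BDF1 copy without a degron tag, on a plasmid integrated at TRP1: with the first bromodomain (BD1) mutated in RDY235, the second (BD2) in RDY236 and both in RDY237, without the B and BID regions in RDY247, with 2 ET domain residues changed in RDY249 and 4 in RDY251, and in wild-type form in RDY234. Each strain was grown with IAA and with DMSO in 3 biological replicates lettered A to C. Each strain is a single line in the labels, so a strain's value also holds whatever else sets that line apart.

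The 10 genes cover the main cytoplasmic routes by which yeast mRNA is broken down. Decay usually begins with shortening of the poly(A) tail by the Ccr4-Not and Pan2-Pan3 complexes. The cap is then removed by Dcp1-Dcp2, which Pat1, Dhh1 and the Lsm1-7 ring promote, and the body of the mRNA is degraded from its 5' end by Xrn1. Several of these proteins have also been found at genes in the nucleus, and yeast mutants that lack Xrn1 change both decay and synthesis of mRNA.

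The libraries held 3301563 to 10699839 S. cerevisiae reads, 42821 to 1163027 of them T>C reads, and 336128 to 1242931 reads of the Schizosaccharomyces pombe cells added as a spike-in. Unless given as raw reads, the values below are counts divided by a size factor from the spike-in, so fewer cells and less RNA per cell cannot be told apart. TRP1, the plasmid marker, had 11.1 to 26.5 normalized total reads in the RDY73 DMSO libraries and 95.3 to 285 in the DMSO libraries of the other 7 strains, and BDF1 had 476 to 712.6 in RDY73 DMSO and 991 to 2839 in the DMSO libraries of the others. RDY73, RDY247 and RDY249 carry a later series of library numbers than the other 5 strains, so across them a strain's part cannot be told apart from that of the series. Changes between IAA and DMSO within a strain are not touched by this.

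The counted intervals follow the R64-3-1 annotation and run from the start codon through the gene, with 250 more bases at its 3' side. On R64 they lie at chrVII:175277-180113 (XRN1), chrXIV:402402-405564 (DCP2), chrIII:249988-252628 (PAT1), chrIV:170160-171930 (DHH1), chrX:186876-187644 (LSM1), chrI:110596-113359 (CCR4), chrXIV:719096-720647 (POP2) and chrVII:330868-334465 (PAN2) on the minus strand, and at chrXV:44938-45883 (DCP1) and chrIII:280117-286693 (CDC39) on the plus strand. The interval of DCP1 shares its first 35 bases with the end of the GRE2 interval on the same strand, and that of PAT1 shares 58 bases with FUB1. The intervals of XRN1, DCP1 and DCP2 also overlap genes on the opposite strand (BUD13, SPT20 and NCS2), and the other 6 members' intervals overlap none. Reads that map to several places made up at most 0.879% of the reads of a member.

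The 250 bases before the start codon were read from the R64 genome for 6007 genes and searched on both strands. TATAAA was found before 4 of the 10 members (XRN1, DCP1, LSM1 and POP2) and before 43.5% of all genes. The Reb1 motif TTACCCG was found before POP2 alone among the members and before 7.03% of all genes, and a run of 8 A or 8 T before XRN1, PAT1 and CDC39 and before 31% of all genes. The 4 stretches of 30 bases that hold TATAAA in the direction of the gene are shown with that motif in capitals.
XRN1: tcttccgttatTATAAAatctgtttggcgt
DCP1: tgagggcagaaTATAAActttaaatgaaaa
LSM1: ctttcaaaaccTATAAAagaaagcagccct
POP2: ttttatacattTATAAAgggtcaaaaagga
They lie at chrVII:180328-180357, minus strand (XRN1), chrXV:44707-44736, plus strand (DCP1), chrX:187668-187697, minus strand (LSM1) and chrXIV:720650-720679, minus strand (POP2). The first base of the motif is 42 bases before the start codon in LSM1 and 21 in POP2, against 233 in XRN1 and 220 in DCP1. CCR4, DCP2, DHH1 and PAN2 have none of the 3 motifs in this window. These are matches of letters, and no binding was measured here.

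The first comparison asked how loss of Bdf1 and Bdf2 changes new RNA of the decay factor genes when no other BDF1 copy is present. In RDY73 the T>C reads of all 10 members fell after IAA, with changes of -4.72 (XRN1) to -7.10 (POP2) on the log2 scale among the 9 members with T>C reads left. Nearly the whole genome did the same: 99.9% of the 5118 tested genes were lowered by the rule used throughout, which asks for a change of 2-fold or more whose Benjamini-Hochberg adjusted p in edgeR's quasi-likelihood test is below 0.05. The median change was -6.27 over the 10 members, -6.07 with DCP1 set at the bound given below, and -5.57 over all tested genes, and 7 of the 9 members with T>C reads left lay below the median of all genes. So few T>C reads were left that single values are imprecise.

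Among the decapping genes, DCP1, the activating subunit of the decapping enzyme, had 0 T>C reads in each RDY73 IAA library, against 33, 17 and 17 in the DMSO libraries. Taking 3 reads over the group as the limit that a count of 0 allows, it was at least 45.1-fold lower. DCP2, which encodes the catalytic subunit, had 1.9, 4.48 and 1.66 normalized T>C reads in the IAA libraries and 159.8, 163 and 164 in the DMSO libraries, a change of -5.96 ± 0.32 (adjusted p = 8.52e-34). The DMSO libraries of DCP2 were closely alike, and every IAA library lay below 5 reads. DHH1, a DEAD-box helicase that promotes decapping, had 2 T>C reads left over the 3 IAA libraries, against 121 in DMSO, 122-fold lower (95% counting interval 33.1 to 1020). PAT1, the scaffold that bridges decapping factors, had 2.38, 0.64 and 0.829 in IAA and 52.1, 81.9 and 68.5 in DMSO, and changed by -5.56 ± 0.36 (adjusted p = 1.09e-28). LSM1, the subunit that sets the cytoplasmic Lsm ring apart from the nuclear one, had 0, 0.64 and 2.48 in IAA and 96.1, 91 and 86.2 in DMSO, and changed by -6.18 ± 0.38 (adjusted p = 6.02e-30). Of the 7 LSM1 reads left, 6 were in replicate C.

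The deadenylase genes fell as well. CCR4, which encodes a catalytic subunit of Ccr4-Not, had 1 T>C read over the 3 RDY73 IAA libraries, against 101 in DMSO, 204-fold lower (95% counting interval 35.8 to 8140). POP2, the yeast Caf1 and the other nuclease of the complex, had 2 against 183, 185-fold lower (50.5 to 1540). PAN2, the nuclease of Pan2-Pan3, had 5 against 146, 59-fold lower (24.7 to 185). These 3 intervals overlap, so the order of the deadenylase genes is not settled. CDC39, the Not1 scaffold of Ccr4-Not and the longest of the 10 genes, had 1.43, 2.56 and 2.07 normalized T>C reads in IAA and 175, 181 and 159 in DMSO, and changed by -6.36 ± 0.34 (adjusted p = 1.84e-34). XRN1, the 5' to 3' exonuclease, kept the most: 4.28, 4.48 and 5.38 in IAA and 115, 142 and 129 in DMSO, a change of -4.72 ± 0.30 (adjusted p = 1.93e-29), at percentile 81.8 of all tested genes.

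To ask whether a member differed from the genome rather than from 0, library sizes were also set by TMM over the S. cerevisiae genes, which gives the change relative to the bulk of genes. The median tested gene was not always at 0 on this scale: for T>C reads after IAA it was at -0.35 in RDY73 and -0.13 in RDY251. On this scale 2 members passed an adjusted p of 0.05 in RDY73, as did 19.1% of all tested genes: CDC39 at -1.06 ± 0.37 (adjusted p = 0.0337) and POP2 at -2.14 ± 0.80 (adjusted p = 0.0484). Neither held in most fits: 2 and 1 of the 6 fits that left out 1 library kept them, and the adjusted p reached 0.206 for CDC39 without IAA replicate A and 0.247 for POP2 without IAA replicate C. XRN1 was at 0.63 on this scale and did not pass (adjusted p = 0.132).

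**Figure D1:**
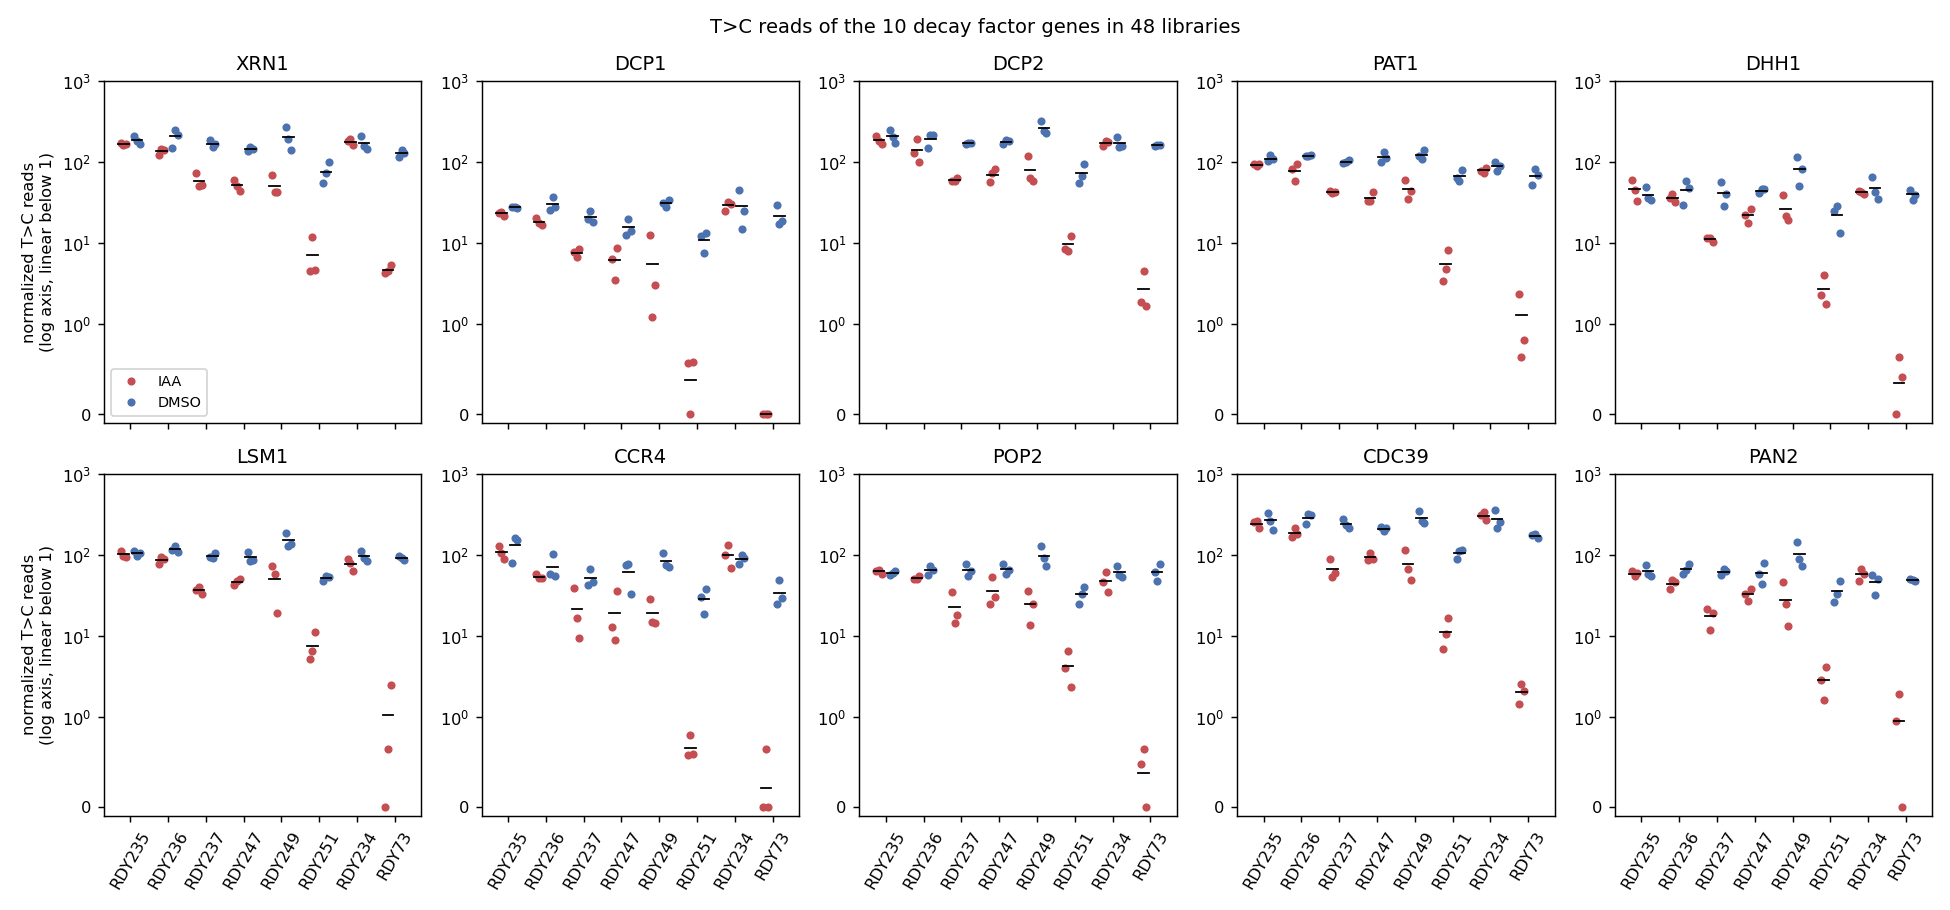
Normalized T>C reads (spike-in scaled, logarithmic axis that is linear below 1) of each of the 10 genes in all 48 libraries, by strain, with IAA libraries in red to the left of DMSO libraries in blue and a bar at each group mean. The IAA libraries sit far below the DMSO libraries in RDY73 and RDY251, lower in RDY237, RDY247 and RDY249, and among them in RDY234; DCP1 is at 0 in all 3 RDY73 IAA libraries.

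The same comparison in the strains with a further BDF1 copy asked how the decay factor genes changed with each form of Bdf1. The study used 3 h of depletion to assess indirect effects that build up, and direct and indirect effects were not told apart here. With wild-type BDF1 (RDY234) no member was called in edgeR or DESeq2 and none reached an unadjusted p of 0.05, and 0% of all tested genes were lowered. The members changed by -0.38 to 0.30, with 95% intervals that ran from -0.91 (POP2) at the lowest to 0.84 (PAN2) at the highest, so changes of this size are not shown to be absent. With BD1 mutated (RDY235) the count was also 0 of 10 in both tools, with 0 at an unadjusted p under 0.05, the background was 0% and the members ranged over -0.29 to 0.22. With BD2 mutated (RDY236) no member was called in edgeR or DESeq2, and the background was 5.2%. There all 10 members were lower in IAA, with changes of -0.32 to -0.72 on the log2 scale, 7 of them at an unadjusted p under 0.05 and 4 at an adjusted p under 0.05 at any fold: XRN1, PAT1, CDC39 and PAN2. Of the 5118 tested genes in RDY236, 3208 had an unadjusted p and 2753 an adjusted p under 0.05, in either direction. The counts of 7 and 4 members are therefore no result about the members. The median change in RDY236 was -0.53 over the members and -0.58 over all tested genes.

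With both bromodomains mutated (RDY237) all 10 members fell, with log2 changes of -1.24 to -1.87, where 90.4% of all tested genes were lowered and the median gene changed by -1.61. Without the B and BID regions (RDY247) 6 of 10 were called against 76.5% of all tested genes: XRN1, DCP1, DCP2, PAT1, CCR4 and CDC39. The other 4 (DHH1, LSM1, POP2 and PAN2) had changes of -0.99, -0.997, -0.95 and -0.87, all past an adjusted p of 0.05 and short of 2-fold. With 2 ET residues changed (RDY249) all 10 fell, with changes of -1.40 (PAT1) to -2.61 (DCP1), where 94.5% of all tested genes fell. With 4 changed (RDY251) all 10 fell, with changes of -2.75 (LSM1) to -5.23 (CCR4), where 99.1% of all tested genes fell. The members' medians were -1.51, -1.21, -1.94 and -3.35 in RDY237, RDY247, RDY249 and RDY251, and those of all tested genes were -1.61, -1.30, -1.81 and -3.48. Relative to the bulk of genes no member passed an adjusted p of 0.05 within any of these 4 strains. Of the 5118 tested genes 495, 570, 492 and 598 did so in RDY237, RDY247, RDY249 and RDY251, so with 10 members a count of 0 says little. Leaving out 1 library ended the call of CCR4 in RDY237 (-0.89, adjusted p = 0.0129, without IAA replicate C) and of DCP1 in RDY247 (-1.02, adjusted p = 0.0673, without DMSO replicate B), and brought each of the 4 uncalled members of RDY247 past 2-fold in at least 1 of 6 fits.

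CCR4 and DCP1 were the most lowered members in RDY251. CCR4 had 0.571, 0.8 and 0.586 normalized T>C reads in the RDY251 IAA libraries (1 read in each) and 30.3, 18.6 and 37.3 in the DMSO libraries, 43.4-fold lower with a 95% counting interval of 14.4 to 214. DCP1 had 0.571, 0 and 0.586 in IAA and 12.1, 7.59 and 13.4 in DMSO, 25.1-fold lower (6.51 to 215). Their IAA libraries all lay far below their DMSO libraries, and the counting intervals are wide. LSM1 and DCP2 were the least lowered: LSM1 had 5.14, 6.4 and 11.1 in IAA and 47.6, 54.5 and 53.5 in DMSO, a change of -2.75 ± 0.31 (adjusted p = 2.59e-14). DCP2 had 8.57, 8.01 and 12.3 in IAA and 54.6, 68.3 and 94.6 in DMSO, a change of -2.88 ± 0.28 (adjusted p = 1.03e-16). In neither gene did the groups overlap.

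**Figure D2:**
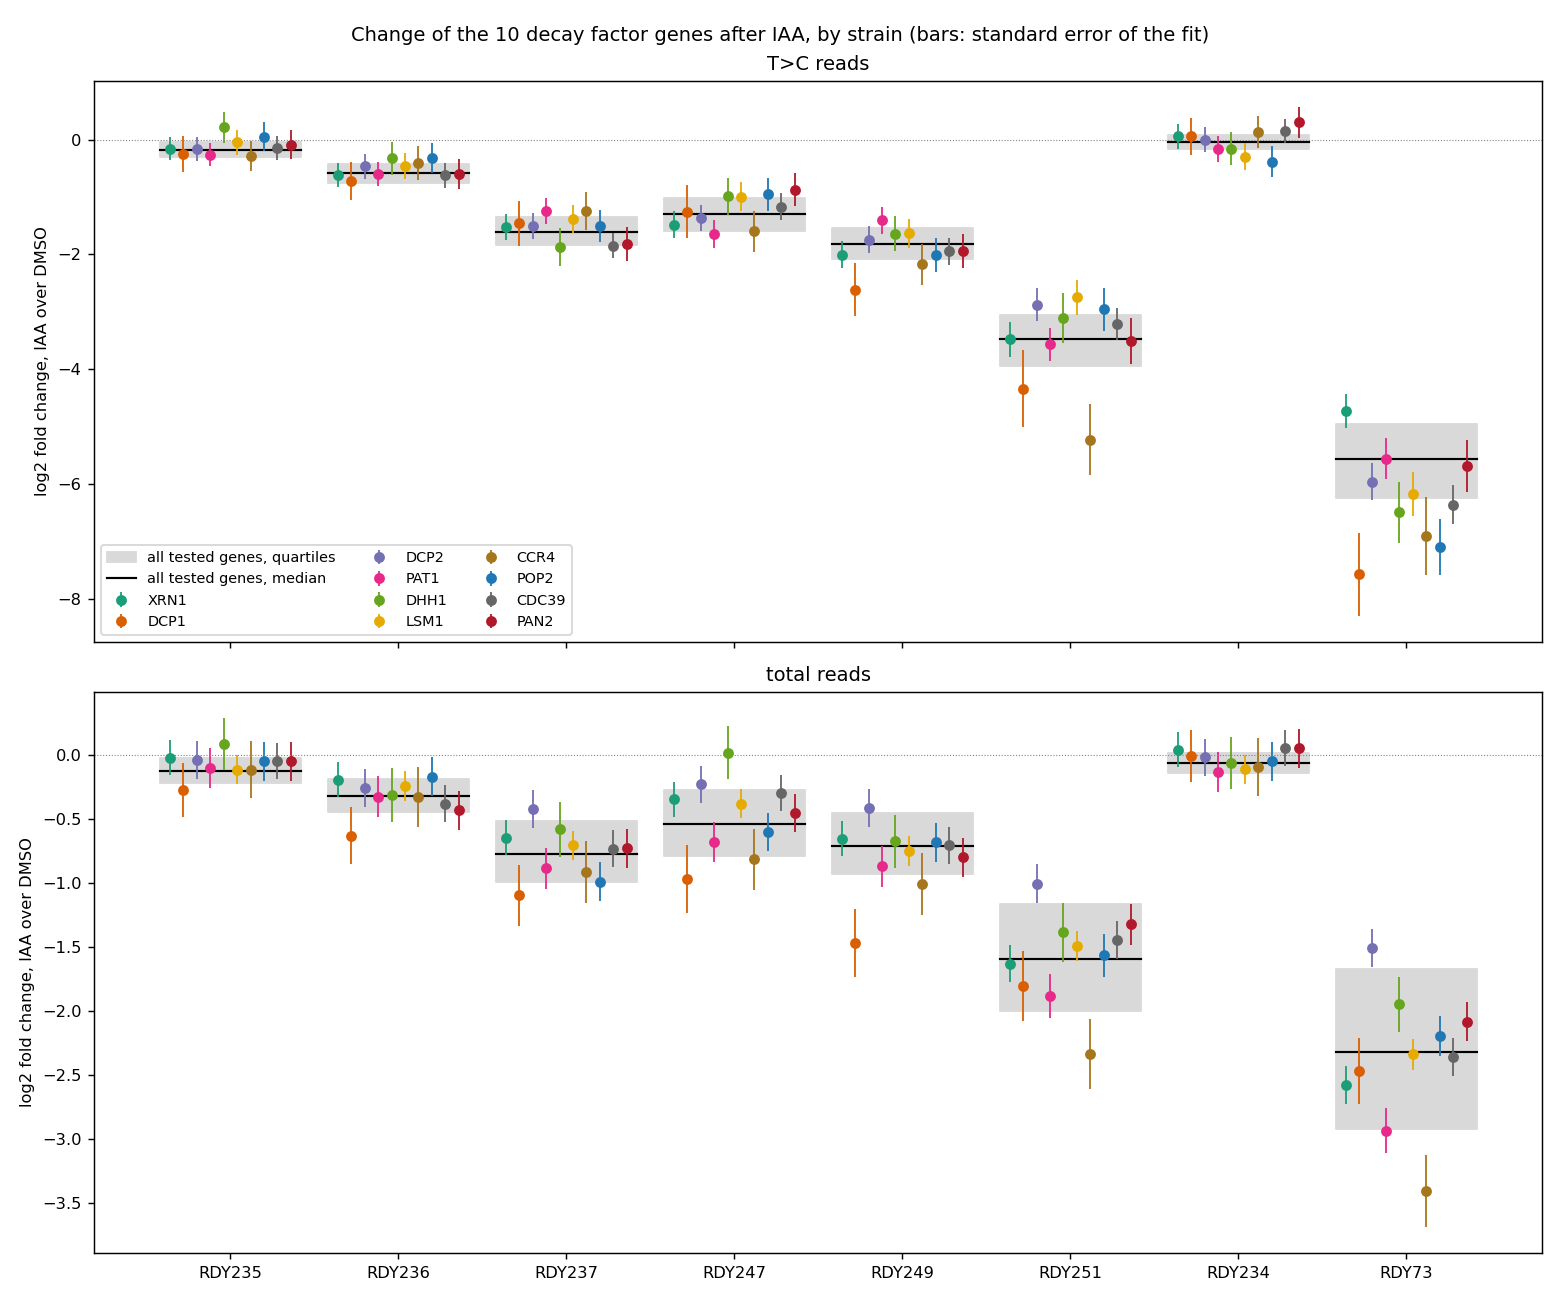
Log2 fold change of IAA over DMSO (vertical axis) for each of the 10 genes by strain (horizontal axis), T>C reads above and total reads below, with bars for the standard error of the fit, a black line at the median and grey boxes at the quartiles of the 5118 tested genes. Most points lie in or near the grey boxes, with T>C changes of -5.23 to -2.75 in RDY251 and -0.38 to 0.30 in RDY234, and in total reads DCP2 stands above the median line and CCR4 below it in RDY251 and RDY73.

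Differences between a strain and RDY234 in their response to IAA were tested by the interaction of strain and treatment, with RDY234 shared by all 7 tests. All 10 members responded more strongly in RDY237, RDY249, RDY251 and RDY73, with differences of -1.08 to -2.12, -1.24 to -2.67, -2.45 to -5.36 and -4.78 to -7.04 on the log2 scale, as the response there minus that in RDY234, with DCP1, at 0 T>C reads in RDY73 IAA, left out of the last range. The background was 88.1%, 92.8%, 99% and 99.9% of all tested genes in the same order. In RDY247 7 of 10 passed, with a background of 69.8%, and DHH1, LSM1 and POP2 did not (-0.83, -0.70 and -0.57). No member passed in RDY235 (background 0%, 0 of 10 at an unadjusted p under 0.05) or RDY236 (background 0%, 3 of 10 at an unadjusted p under 0.05) in edgeR or DESeq2. Of the 5118 tested genes, 57 in RDY235 and 1453 in RDY236 had an unadjusted p under 0.05. The counts of members lie near the shares of all genes. Relative to the bulk of genes, CDC39 in RDY73 was the one member whose response differed from that in RDY234 at an adjusted p under 0.05, at -1.28 ± 0.40 (adjusted p = 0.0191), where 14.4% of all tested genes passed and the median gene was at -0.35. It passed in 11 of 12 fits that left out 1 library (adjusted p = 0.131 without RDY73 IAA replicate A). In RDY235, RDY236, RDY237, RDY247, RDY249 and RDY251 no member passed, with backgrounds of 0%, 0.0195%, 3.58%, 2.89%, 2.81% and 7.52%, and 0, 0, 1, 2, 0 and 2 members had an unadjusted p under 0.05 there. The share of all tested genes at that unadjusted p is not given here.

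Under IAA, each variant strain was next set against RDY234, so that cells with a mutated Bdf1 were compared with cells with the wild-type one. CCR4 was the lowest of the 10 members in RDY236, RDY247 and RDY251 in this comparison, and DCP1 in RDY249. CCR4 had 0.571, 0.8 and 0.586 normalized T>C reads in RDY251 IAA, 28.1, 14.6 and 14.2 in RDY249 IAA, 12.7, 8.83 and 35.2 in RDY247 IAA and 38.6, 16.6 and 9.39 in RDY237 IAA, against 97.8, 130.3 and 68.3 in RDY234 IAA. The RDY251, RDY249, RDY247 and RDY237 libraries all lay below those of RDY234, with replicate C of RDY247 and replicate A of RDY237 well above their partners. The members called were 10 in RDY251, 6 in RDY249, 6 in RDY247 and 9 in RDY237, where 99.2%, 65.8%, 64.6% and 83.7% of all tested genes were lowered. None was called in RDY236 (2 of 10 at an unadjusted p under 0.05, background 1.45%) or in RDY235 (0 of 10, background 0.0391%), in edgeR or DESeq2. The backgrounds are shares called, and an unadjusted p under 0.05 was reached by 970 of the 5118 tested genes in RDY236 and 374 in RDY235. Without 1 library the values fell short of 2-fold for LSM1 in RDY237 (-0.95, adjusted p = 0.00145, without RDY234 replicate A), for POP2 in RDY237 in 3 of 6 fits (as far as -0.80, adjusted p = 0.0148, without RDY237 replicate B), for DCP2 in RDY249 in 2 of 6 (as far as -0.93, adjusted p = 0.000968, without RDY249 replicate C) and for PAN2 in RDY249 (-0.74, adjusted p = 0.0344, without the same library). Other calls were gained. DHH1 in RDY247 reached -1.04, adjusted p = 0.0102 without RDY247 replicate C, and without RDY249 replicate A the RDY249 values of DHH1, LSM1 and POP2 reached -1.04, adjusted p = 0.00555, -1.03, adjusted p = 0.000659 and -1.27, adjusted p = 0.000675, so that the counts of 6 depend on single libraries. POP2 in RDY249 was also called without RDY234 replicate C (-1.15, adjusted p = 0.00148). CCR4 in RDY236 passed without RDY234 replicate C (-1.07, adjusted p = 0.0409). RDY247 and RDY249 differ from RDY234 in library series too, which cannot be told apart from the strain.

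Relative to the bulk of genes, CCR4 was lower than in RDY234, at -2.96 ± 0.82 (adjusted p = 0.00516) in RDY251, -1.16 ± 0.35 (adjusted p = 0.00712) in RDY249 and -1.05 ± 0.34 (adjusted p = 0.015) in RDY247. The share of all tested genes past the same threshold in either direction was 20.9%, 33.1% and 28.7%, and the median gene was at -0.19, -0.03 and -0.03. The RDY249 value of CCR4 passed in all 6 fits that left out 1 library, that of RDY251 in 5 and that of RDY247 in 3, with an adjusted p of 0.0603 without RDY251 IAA replicate C and 0.153 without RDY247 IAA replicate A. The RDY247 value ran from -0.75 without that library to -1.95 without RDY247 IAA replicate C. Set against the DMSO libraries of each strain the gaps were smaller. The difference between these strains and RDY234 in the response to IAA, relative to the bulk, was -2.21 (adjusted p = 0.175) in RDY251, -0.52 (adjusted p = 0.665) in RDY249 and -0.42 (adjusted p = 0.712) in RDY247, and none of the 3 passed. CDC39 was lower in 4 strains: -0.50 ± 0.14 (adjusted p = 0.0175) in RDY236, -0.67 ± 0.15 (adjusted p = 0.000511) in RDY237, -0.50 ± 0.16 (adjusted p = 0.0103) in RDY247 and -0.82 ± 0.16 (adjusted p = 3.95e-05) in RDY249. All of these share the RDY234 IAA libraries, in which CDC39 had 306, 334 and 268 normalized T>C reads, the highest mean of its 16 groups. For IAA against DMSO in T>C reads, CDC39 passed this test in RDY73 alone, and its response did not pass against that of RDY234 in any of these 4 strains. The CDC39 value held in all 6 fits in RDY237 and RDY249, in 5 in RDY247 (adjusted p = 0.0619 without RDY247 IAA replicate A) and in 2 in RDY236 (adjusted p = 0.131 without RDY236 IAA replicate C).

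XRN1 was also lower relative to the bulk in the B/BID and 2-residue ET strains, at -0.58 ± 0.18 (adjusted p = 0.00797) in RDY249 and -0.57 ± 0.18 (adjusted p = 0.0109) in RDY247, and DCP1 in RDY249 at -1.31 ± 0.44 (adjusted p = 0.0148). The XRN1 value in RDY249 passed in all 6 left-out fits, that in RDY247 in 4 (adjusted p = 0.062 without RDY247 IAA replicate C) and that of DCP1 in 4 (adjusted p = 0.134 without RDY249 IAA replicate B). The DCP1 value ran from -0.90 without that library to -2.24 without RDY249 IAA replicate A. In the response to IAA against that of RDY234, relative to the bulk, XRN1 was at -0.30 (adjusted p = 0.62) in RDY249 and -0.29 (adjusted p = 0.593) in RDY247 and DCP1 at -0.98 (adjusted p = 0.421) in RDY249. The members that passed above the bulk were LSM1 in RDY251 at 0.93 ± 0.31 (adjusted p = 0.0224), POP2 in RDY247 at 0.74 ± 0.25 (adjusted p = 0.018) and PAT1 in RDY237 at 0.60 ± 0.20 (adjusted p = 0.0178). In RDY237 and RDY236 23.3% and 6.66% of all tested genes passed. Each of these 3 was lost in at least 1 left-out fit, with an adjusted p of 0.304 for LSM1 without RDY251 IAA replicate C, 0.213 for POP2 without RDY247 IAA replicate B, where it was 0.48, and 0.0853 for PAT1 without RDY237 IAA replicate B. All 3 still had fewer T>C reads in the variant strains than in RDY234 on the spike-in scale.

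Within each library series, one pair of variant strains was compared directly under IAA. With 4 ET residues changed (RDY251) all 10 members had fewer T>C reads than with both bromodomains mutated (RDY237), with differences of -2.08 (DHH1) to -4.86 (CCR4) on the log2 scale, where 98.9% of all tested genes were lowered and the median gene changed by -2.82. DHH1 had 2.29, 4 and 1.76 normalized T>C reads in RDY251 IAA and 11.6, 11.6 and 10.2 in RDY237 IAA, which do not overlap. With 2 ET residues changed (RDY249) no member differed by the call from the strain without B and BID (RDY247), with differences of -0.51 to 0.33 and a background of 0.352%. At an unadjusted p under 0.05 there were 0 of 10 members and 567 of the 5118 tested genes. Neither edgeR nor DESeq2 called a member there. The widest 95% interval, that of DCP1, ran from -1.56 to 0.77.

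Total reads show how far the mRNA pool of the decay factor genes followed. In RDY73 the pool of all 10 members fell after IAA, with changes of -1.51 (DCP2) to -3.41 (CCR4) on the log2 scale, and in RDY251 of -1.01 (DCP2) to -2.33 (CCR4). The medians were -2.35 and -1.53 over the members and -2.32 and -1.59 over all tested genes, of which 89.3% and 81.1% were lowered. In both strains DCP2 kept the largest part of its pool and CCR4 the smallest. In RDY249 2 of 10 members were called (DCP1 and CCR4, background 19.4%), in RDY237 DCP1 alone (background 24.2%) and in RDY247 none (background 12.3%). In RDY247 8 of 10 had an unadjusted p under 0.05, as did 3842 of the 5118 tested genes. None was called in RDY236, RDY235 or RDY234, where the backgrounds were 0.313%, 0% and 0%. There 5, 0 and 0 of 10 had an unadjusted p under 0.05, against 2581, 453 and 112 of the 5118 tested genes. Beside these 0 counts DESeq2 called no member either.

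DCP2 had 215, 196 and 186 normalized total reads in the RDY73 IAA libraries and 587, 596 and 518 in the DMSO libraries, a change of -1.51 ± 0.15 (adjusted p = 1.06e-13). It had 152, 153 and 173 in RDY251 IAA and 287, 308 and 368 in RDY251 DMSO, a change of -1.01 ± 0.15 (adjusted p = 3.05e-08). Every IAA library lay below every DMSO library in both strains, and the fall was smaller than that of the median gene. Without 1 library the RDY251 value fell short of 2-fold in 3 of 6 fits, as far as -0.90, adjusted p = 2.17e-06, without DMSO replicate C. Relative to the bulk, DCP2 was higher after IAA by 0.82 ± 0.10 (adjusted p = 1.35e-09) in RDY73, 0.56 ± 0.11 (adjusted p = 1.82e-05) in RDY251, 0.31 ± 0.10 (adjusted p = 0.0124) in RDY237, 0.31 ± 0.10 (adjusted p = 0.00964) in RDY247 and 0.29 ± 0.10 (adjusted p = 0.0192) in RDY249. The RDY73 and RDY251 values passed in all 6 left-out fits. The other 3 lost the threshold without 1 or 2 libraries, with adjusted p up to 0.0705 in RDY237 (without DMSO replicate A), 0.077 in RDY247 (without IAA replicate C) and 0.12 in RDY249 (without IAA replicate A). Many genes departed from the bulk in total reads: 72.8%, 59.6%, 36.4%, 40.6% and 37.2% of all tested genes passed in these 5 strains.

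CCR4 had 20, 22.4 and 25.7 normalized total reads in RDY73 IAA and 162, 390.2 and 179 in RDY73 DMSO, where replicate B stood at more than 2 times the other libraries. The change was -3.41 ± 0.28 (adjusted p = 2.28e-16), and relative to the bulk -1.08 ± 0.31 (adjusted p = 0.00226), which became -0.53 (adjusted p = 0.107) without that library. In RDY251, CCR4 had 40, 32.8 and 42.2 in IAA and 188, 174 and 226 in DMSO, with no overlap, and was -0.77 ± 0.30 (adjusted p = 0.025) relative to the bulk, kept in 3 of 6 fits (adjusted p = 0.0772 without IAA replicate B). PAT1 was lower than the bulk in RDY73 at -0.61 ± 0.16 (adjusted p = 0.000867) in all 6 fits, and XRN1 at -0.25 ± 0.10 (adjusted p = 0.0245), which without DMSO replicate B was -0.11 (adjusted p = 0.329). XRN1 had the smallest fall in T>C reads of the 10 and a slightly larger fall of its pool than the bulk.

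The remaining departures in total reads were in single strains. DHH1 was not called in RDY247, with 274, 300.1 and 300.2 normalized total reads in IAA and 304, 258 and 302 in DMSO, which overlap, and lay 0.56 ± 0.18 (adjusted p = 0.00944) above the bulk. It kept that call in 5 of 6 fits, and without IAA replicate C its adjusted p was just past the threshold, at 0.05 after rounding. CDC39 lay 0.24 ± 0.10 (adjusted p = 0.046) above the bulk in the same strain, in 2 of 6 fits (adjusted p = 0.188 without DMSO replicate A). DCP1 lay below it in RDY249 at -0.75 ± 0.24 (adjusted p = 0.0139), with 45.3, 20.6 and 29.3 in IAA and 97.8, 80.4 and 80 in DMSO and an adjusted p of 0.0968 without IAA replicate B. The calls of DCP1 in RDY237 and of CCR4 in RDY249 by the 2-fold rule ended when certain libraries were left out, that of CCR4 in 3 of 6 fits (-0.80, adjusted p = 0.00248 without RDY237 IAA replicate B, and as far as -0.82, adjusted p = 0.00553 without RDY249 DMSO replicate A). Leaving out 1 library also added calls: CCR4 in RDY237 (as far as -1.12, adjusted p = 0.000363 without IAA replicate A), POP2 in RDY237 (as far as -1.07, adjusted p = 1.16e-06 without the same library), DCP1 in RDY247 (as far as -1.19, adjusted p = 0.00118 without IAA replicate A) and CCR4 in RDY247 (as far as -1.15, adjusted p = 0.00028 without IAA replicate C), in 2 of 6 fits each. Without RDY249 IAA replicate A, PAT1 and PAN2 were called there too (-1.13, adjusted p = 4.66e-08 and -1.01, adjusted p = 1.93e-07).

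The share of a gene's reads that were T>C reads was a further measure, which needs no spike-in. A share can be compared between treatments of a gene, but between genes it also depends on how many T a gene's reads cover. Under DMSO the shares of the 10 members differed widely. XRN1 had the lowest share in all 8 strains, from 7.2 to 14.6% as means over 3 libraries, and DCP1, DCP2 or POP2 had the highest. In RDY234 DMSO the means were 32.3 ± 2.76% for POP2 and 31.5 ± 2.01% for DCP2, against 10 ± 1.44% for XRN1 (SD, n = 3), and the median tested gene was at 22.6%. XRN1 lay at percentile 14.9 of all tested genes there, and POP2 and DCP2 at percentiles 77.2 and 75.4.

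After IAA the share fell in RDY73 to 2.11 ± 0.359% for XRN1, against 9.6 ± 0.659% under DMSO, and to 1.35 ± 0.808% for DCP2, against 28.7 ± 2.52%. PAT1 had the highest share left, 2.3 ± 1.29%, and DCP1 the lowest, at 0% in 3 libraries with 29, 20 and 26 total reads. In RDY251 the shares under IAA ran from 1.75 ± 0.595% for CCR4 to 9.86 ± 3.7% for POP2, against 14.4 ± 3.23% and 26.1 ± 4.58% under DMSO. Every IAA library lay below every DMSO library for all 10 members in RDY249, RDY251 and RDY73, where 90.1%, 95.3% and 99% of all tested genes did the same. The count was 7 of 10 in RDY237 (background 87%), 7 in RDY247 (76%), 3 in RDY235 (11.2%), 2 in RDY236 (32.3%) and 0 in RDY234 (2.97%). With 3 libraries against 3, the exact two-sided permutation test cannot go below p = 0.1, and after Benjamini-Hochberg adjustment over the 80 tests the smallest value was 0.163, so none passes 0.05.

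**Figure D3:**
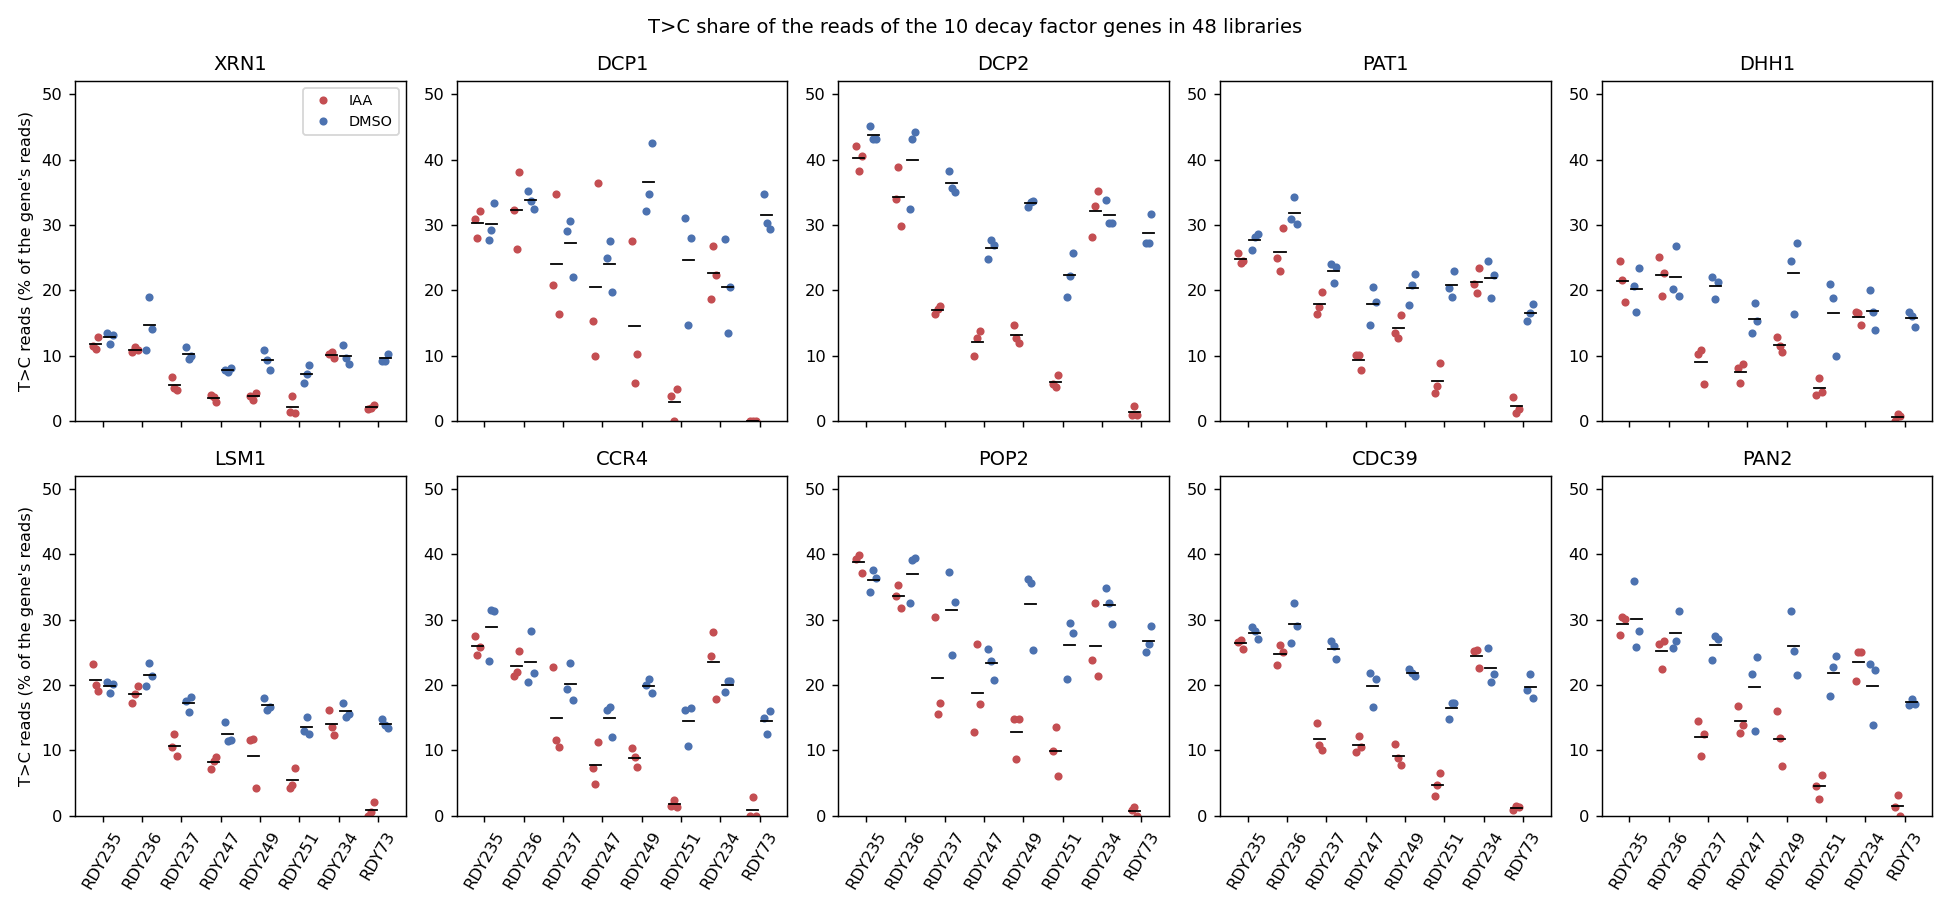
T>C reads as a percentage of all reads of each of the 10 genes (vertical axis) in all 48 libraries by strain, with IAA libraries in red to the left of DMSO libraries in blue and a bar at each group mean. XRN1 stays below 20% in every library, DCP2 and POP2 reach above 30% in several strains under DMSO, and in RDY73 the IAA libraries of all 10 genes lie below 4%.

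Under DMSO each strain with a further BDF1 copy was compared with RDY73, to see what the copy does while tagged Bdf1 and Bdf2 are present. CCR4 was higher than in RDY73 in 4 strains by the call: 1.39 ± 0.31 (adjusted p = 0.000218) in RDY234, 1.95 ± 0.30 (adjusted p = 1.16e-07) in RDY235, 1.08 ± 0.31 (adjusted p = 0.00389) in RDY236 and 1.28 ± 0.31 (adjusted p = 0.00142) in RDY249. It had 79, 162 and 150.2 normalized T>C reads in RDY235 DMSO, 76.8, 98.3 and 90.3 in RDY234 DMSO and 24.2, 48.5 and 28.8 in RDY73 DMSO, and the RDY73 libraries lay below all of the others. It was the member called in RDY234, RDY235 and RDY236, where the background was 11%, 11.6% and 13.8% of all tested genes in either direction. In RDY249 DHH1 and PAN2 were called as well (background 8.19%), at 1.00 and 1.04. The median gene stood at 0.57 in RDY249, 0.35 in RDY236, 0.14 in RDY235 and 0.05 in RDY234. No member was called in RDY237 (background 10.5%, 2 of 10 at an unadjusted p under 0.05) or RDY247 (2.54%, 2 of 10), in edgeR or DESeq2. These backgrounds are shares called, and in both strains more of the tested genes reached an unadjusted p under 0.05 than were called. In RDY237 1835 of the 5118 tested genes did so. The counts of 2 members can therefore not be set against the backgrounds, and they are no result about the members. RDY251 alone had members called lower, DCP1 and DCP2 at -1.03 and -1.17, where 41.5% of all genes were called and the median gene was at -0.89.

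Several of these calls rest on 1 library. The CCR4 value in RDY236 was 0.73, adjusted p = 0.114 without RDY236 replicate B, 0.87, adjusted p = 0.0483 without RDY73 replicate A and 0.98, adjusted p = 0.024 without RDY73 replicate C. DHH1 and PAN2 in RDY249 were 0.69, adjusted p = 0.115 and 0.74, adjusted p = 0.0746 without RDY249 replicate A, and DHH1 fell short of 2-fold in 3 further fits. DCP1 in RDY251 was -0.73, adjusted p = 0.115 without RDY73 replicate A and -0.79, adjusted p = 0.0797 without RDY251 replicate B. CCR4 in RDY247, not called with all libraries, passed without RDY73 replicate B (adjusted p = 0.0326) and was 1.16, adjusted p = 0.0155 without RDY247 replicate C. PAT1 in RDY249 was called without RDY73 replicate B (1.03, adjusted p = 0.00166), and in RDY251 XRN1 (-1.01, adjusted p = 0.000312, without RDY251 replicate C), DHH1 (-1.04, adjusted p = 0.00823, without RDY251 replicate B) and POP2 (as far as -1.08, adjusted p = 0.00136, without RDY251 replicate C) were called lower. All 7 comparisons share the RDY73 DMSO libraries, and all but those of RDY247 and RDY249 cross the 2 library series.

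Relative to the bulk of genes, CCR4 had more T>C reads than in RDY73 in 2 strains, at 1.36 ± 0.29 (adjusted p = 0.000102) in RDY234 and 1.81 ± 0.27 (adjusted p = 1.34e-07) in RDY235, in all 6 left-out fits each. It did not pass in RDY236 or RDY249, where it had passed on the spike-in scale. PAT1, the decapping activator, passed in 5 strains, highest in RDY251 at 0.87 ± 0.18 (adjusted p = 0.000141), which held in all 6 fits. In the other 4 PAT1 was at 0.58 in RDY235 (5 of 6), 0.48 in RDY236 (2 of 6), 0.52 in RDY237 (4 of 6) and 0.68 in RDY247 (4 of 6), with the number of left-out fits that kept it in parentheses, and each had its highest adjusted p (0.0838, 0.221, 0.162 and 0.131) without RDY73 replicate A. CDC39 passed in RDY234 at 0.60 ± 0.14 (adjusted p = 0.000487) in all 6 fits, and at 0.49 in RDY235 (5 of 6), 0.37 in RDY236 (3 of 6) and 0.41 in RDY237 (4 of 6). Without RDY235 replicate A the RDY235 value was 0.31 (adjusted p = 0.118). XRN1 passed in RDY235, at 0.40 in RDY235 (3 of 6). No member passed in RDY249, where 2 of 10 had an unadjusted p under 0.05, a threshold for which the share of all genes is not given here. The backgrounds were 36.8%, 37.4%, 31%, 35.9%, 7.09%, 1.09% and 28.9% of all tested genes in RDY234, RDY235, RDY236, RDY237, RDY247, RDY249 and RDY251.

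In total reads under DMSO no member was called against RDY73 in any of the 7 strains, in edgeR or DESeq2. In RDY234, RDY235, RDY236, RDY237, RDY247, RDY249 and RDY251, 4, 4, 2, 1, 4, 9 and 9 of 10 had an unadjusted p under 0.05. So did 2893, 3526, 3020, 3327, 1248, 2736 and 4382 of the 5118 tested genes. In the same order 8.81%, 14.3%, 6.64%, 10.9%, 2.29%, 1.29% and 35.2% of all tested genes were called in either direction. The count of 0 depends on RDY73 replicate B, the library high in CCR4: without it CCR4 was called in RDY234 (1.37, adjusted p = 6.43e-06), RDY235 (1.38, adjusted p = 2.91e-06), RDY247 (1.21, adjusted p = 0.00014) and RDY249 (1.29, adjusted p = 7.72e-05), and DHH1 and POP2 were called lower in RDY251 (-1.02, adjusted p = 7.17e-05 and -1.03, adjusted p = 1.39e-07). CCR4 in RDY235 was also called without RDY235 replicate A, DHH1 in RDY251 without RDY251 replicate B, and DCP1 in RDY234 without RDY73 replicate A (1.12, adjusted p = 0.000188) or RDY234 replicate B. Relative to the bulk the exonuclease gene XRN1 stood higher in all 7 strains with a further BDF1 copy than in RDY73. It had 1741, 2030 and 1803 normalized total reads in RDY247 DMSO, 2509, 2049 and 1828 in RDY249 DMSO and 1240, 1545 and 1249 in RDY73 DMSO, strains of a single library series, and all libraries of the first 2 lay above those of RDY73. Relative to the bulk these were 0.35 ± 0.10 (adjusted p = 0.00778) and 0.34 ± 0.10 (adjusted p = 0.0256), kept in 3 and 2 of 6 left-out fits (adjusted p up to 0.114 without RDY247 replicate B and 0.194 without RDY73 replicate C). In the 5 strains of the other series XRN1 was 0.40 (RDY236) to 0.67 (RDY237) above the bulk, in all 6 fits each. CDC39 was above the bulk in those 5 strains, by 0.40 (RDY251) to 0.67 (RDY234), also in all 6 fits each.

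Of the other members, DCP1 was above the bulk by 0.54 in RDY237, 0.69 in RDY236, 0.90 in RDY235 and 1.15 in RDY234, with adjusted p of 0.0197, 0.00254, 9.27e-05 and 1.33e-06. It had 162, 111 and 122 normalized total reads in RDY234 DMSO and 85.3, 56.6 and 64.1 in RDY73 DMSO, with no overlap. CCR4 passed in RDY234, RDY235 and RDY236 (1.09, 1.34 and 0.60), PAT1 in RDY235, RDY237, RDY247 and RDY251 (0.46 to 0.55), and LSM1 in RDY235 and RDY237 by no more than 0.17. DCP2, DHH1, POP2 and PAN2 passed in none of the 7. The background was high in the strains of the other series, with 55.5%, 56.4%, 51.3%, 54.3% and 49.1% of all tested genes past the threshold in RDY234, RDY235, RDY236, RDY237 and RDY251, against 17.6% in RDY247 and 6.47% in RDY249. Of these, CCR4 in RDY236 and DCP1 in RDY237 were kept in 2 of 6 left-out fits each (adjusted p up to 0.237 without RDY73 replicate A and 0.0905 without RDY73 replicate B). Without RDY73 replicate B the CCR4 values were 1.63 in RDY234 and 1.15 in RDY236. LSM1 was kept in 3 of 6 in RDY235 and 2 of 6 in RDY237, with adjusted p up to 0.15 and 0.175 without RDY73 replicate C. PAT1 was kept in all 6 in RDY237 and RDY251 and in 5 of 6 in RDY235 and RDY247, with adjusted p of 0.054 and 0.0517 without RDY73 replicate A.

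**Figure D4:**
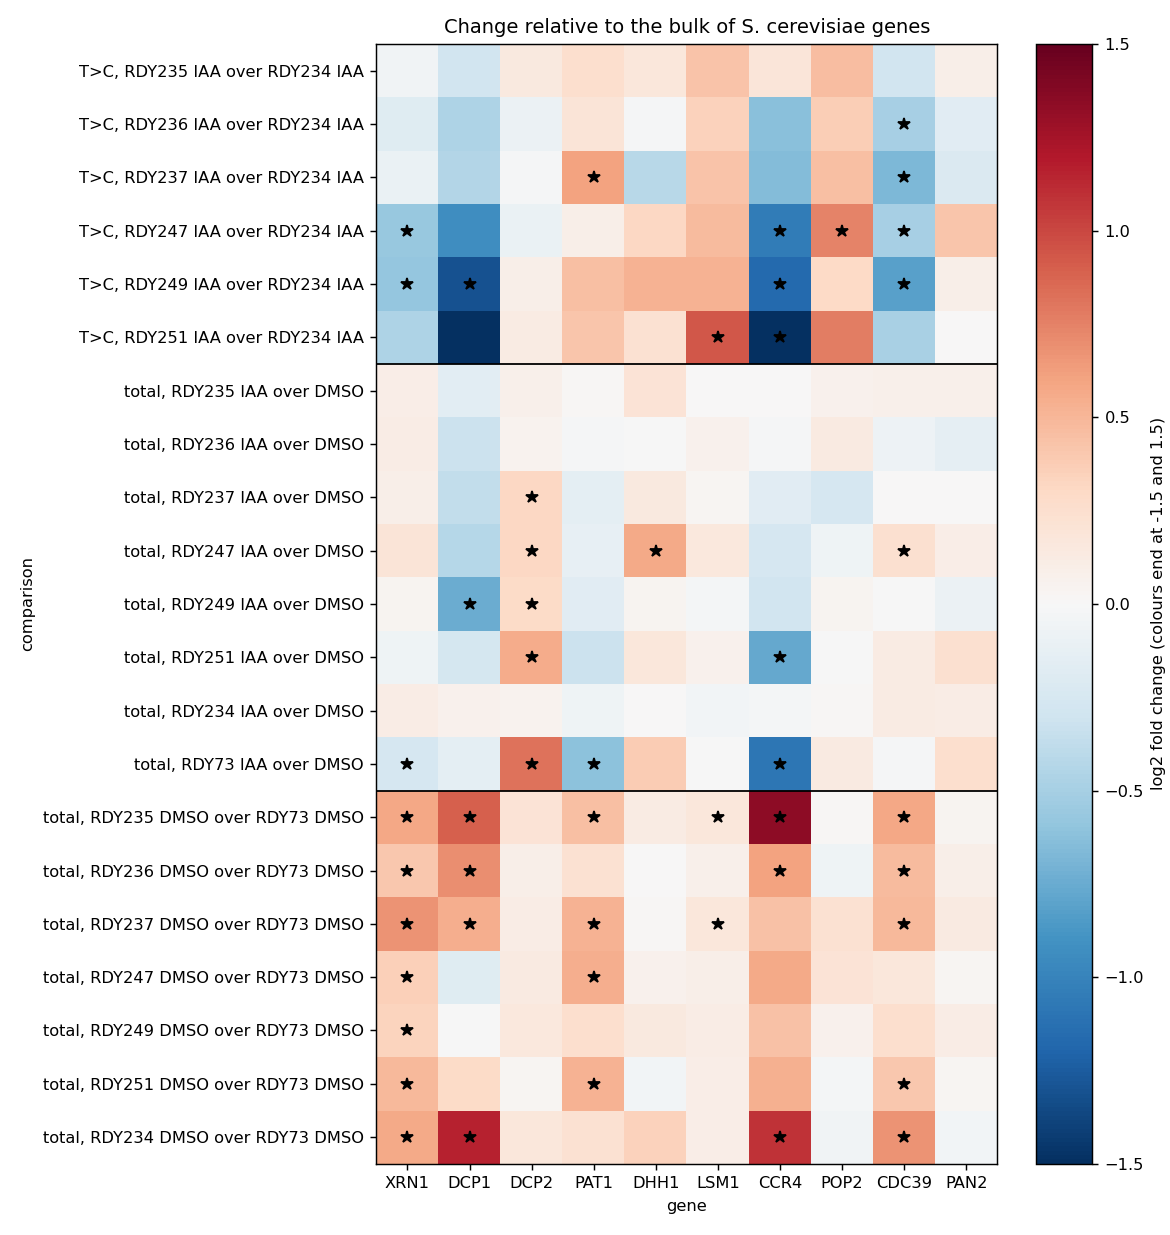
Log2 change of each of the 10 genes (columns) relative to the bulk of S. cerevisiae genes in 21 comparisons (rows), from T>C reads under IAA against RDY234 at the top, through total reads after IAA against DMSO, to total reads under DMSO against RDY73, with colours that end at -1.5 and 1.5 and stars at an adjusted p under 0.05. CCR4 is blue and starred in RDY247, RDY249 and RDY251 in the top rows, DCP2 is red and starred in 5 of 8 strains in the middle rows, and XRN1 is starred in all 7 bottom rows.

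The other decay genes of the pathway gave the setting of these values. A list of 45 held the rest of the Lsm ring, decapping enhancers and scavengers, the other Ccr4-Not and Pan subunits, the nonsense-mediated decay factors, the exosome and Ski complexes, the nuclear exonuclease Rat1 with Rai1, and RNA-binding proteins that act on poly(A) or on stability. All 45 were tested. After IAA, T>C reads fell by the call for 43 of 45 in RDY237, 36 in RDY247, 44 in RDY249, 45 in RDY251, 2 in RDY236, 0 in RDY235, 0 in RDY234 and 45 in RDY73, and rose for none in any strain. Their median changes in RDY237, RDY247, RDY249, RDY251 and RDY73 were -1.59, -1.28, -1.87, -3.40 and -5.63, against -1.61, -1.30, -1.81, -3.48 and -5.57 over all tested genes.

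The least lowered of the 45 in RDY73, RDY237, RDY247, RDY249 and RDY251 were TIS11, CAF130 and DCS2. TIS11, which encodes a zinc-finger protein that binds AU-rich elements and is known for its part in the response to low iron, changed by -2.23 ± 0.31 (adjusted p = 9.87e-11) in RDY73, with 8.86 ± 1.21 normalized T>C reads in IAA and 41.3 ± 10.8 in DMSO (SD, n = 3), and by -0.21 ± 0.27 (adjusted p = 0.447) in RDY247. DCS2, a relative of the scavenger decapping enzyme Dcs1, changed by 0.17 ± 0.47 (adjusted p = 0.714) in RDY249 and -1.74 ± 0.47 (adjusted p = 0.000323) in RDY251, with 3.38 ± 0.557 in RDY251 IAA and 11.9 ± 3.85 in RDY251 DMSO. CAF130, a Ccr4-Not subunit, changed by -0.56 ± 0.21 (adjusted p = 0.0093) in RDY237. The most lowered was RRP6, a nuclear exosome nuclease, in RDY73, with 1 T>C read in IAA against 203 in DMSO, 410-fold lower (95% counting interval 72.8 to 16300). LSM7 was the lowest in RDY237, RDY247 and RDY249 (-2.19, -2.17 and -2.44), and SKI8, of the Ski complex, in RDY251 (-4.48). In RDY236 the 2 called were DCS1 at -1.09 ± 0.34 (adjusted p = 0.00958) and PAB1, the poly(A)-binding protein gene, at -1.03 ± 0.22 (adjusted p = 0.000599).

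Over the 16 groups the order of levels was alike among the members, and the median tested gene had the same groups at its ends. After IAA it fell most in RDY73 (-5.57) and next in RDY251 (-3.48). Under DMSO it stood lowest in RDY251 (-0.89) and highest in RDY249 (0.57), both against RDY73. The shared order is therefore no result about the members. Mean normalized T>C reads were lowest in RDY73 IAA and next lowest in RDY251 IAA for all 10. The DMSO group with the lowest T>C reads was RDY251 for all 10. RDY249 DMSO was the highest group for 7 of them, XRN1 was highest in RDY236 DMSO (207), CCR4 in RDY235 DMSO (130.5) and CDC39 in RDY234 IAA (302). Most neighbours in these orders overlapped: of the 15 pairs of neighbouring groups, between 1 and 4 were free of overlap per gene in T>C reads and between 1 and 6 in total reads. In total reads RDY251 IAA was the lowest group for DCP2, DHH1, POP2 and PAN2 and RDY73 IAA for the other 6.

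Once the median of the tested genes in each group was taken out, the profiles of the 10 members differed. The profiles are log2 of the mean normalized T>C count plus 1, and the added 1 weighs most where counts were lowest. In RDY73 IAA, DCP1 stood at 0.379 with 0 T>C reads and CDC39 at -1.206 with a mean of 2.02. The r values below therefore also depend on a gene's level, and by how much was not tested. Across the 16 groups the 45 pairs of members had Pearson r from -0.66 (XRN1 and DHH1) to 0.85 (LSM1 and POP2), with a median of 0.145, 10 above 0.5 and 17 below 0. XRN1 and DCP1, the next highest pair, had r = 0.812. The groups share library series and depth, so these are descriptions. Among 2436 genes with a mean of at least 50 T>C reads, those most like the mean profile of the members were IRA2 (r = 0.913), ARP8 (0.908), STE5 (0.898), EMW1 (0.893) and EGT2 (0.885), also over 16 groups.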

How the data were processed

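RNA of 48 libraries, 8 strains with IAA and with DMSO in 3 replicates each, was measured by SLAM-seq with S. pombe cells as spike-in. The authors trimmed reads with fastp 0.23.2 and mapped them with SLAM-DUNK 0.4.3, and deposited, per gene interval and library, counts of all reads and counts of T>C reads (at least 2 conversions). Intervals followed annotation R64-3-1 with 250 bases added at the 3' end.

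Size factors were medians of ratios over the 4955 S. pombe genes with reads in all libraries. Genes with a mean of at least 10 T>C reads (5118) were fitted in edgeR 4.0.16 (R 4.3.3, limma 3.58.1) with all 16 groups in 1 quasi-likelihood model, p-values were adjusted over all tested genes, and a gene was called at an adjusted p under 0.05 and at least 2-fold. DESeq2 1.42.0 was an alternative. Changes relative to the bulk used TMM over S. cerevisiae genes and an adjusted p under 0.05. Ratios of low counts carry exact 95% intervals, and a count of 0 was bounded by 3 reads over the group, both for counting error only. On simulated data the fit called 200 of 200 changed genes in T>C reads and in total reads of IAA against DMSO in RDY234, among 5118 genes, with planted changes of 4- and 8-fold, and also called 1 unchanged gene in T>C reads and 0 in total reads. Changes near 2-fold were not simulated.

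The members and gene lists were chosen with earlier results of these data known. The text names all 10 members, the highest and lowest of the other decay genes in RDY73, RDY237, RDY247, RDY249 and RDY251, those called in RDY234, RDY235 or RDY236, and the 5 genes most like the members. Alternatives were other spike-in and S. cerevisiae scalings, filters, DESeq2, the groups compared alone, a replicate block and leaving out each library. Leaving out libraries from the changes relative to the bulk was chosen after seeing the data.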

Additional observations from a re-analysis of the deposited data

Results flagged for a closer look

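The response to IAA differed between strains by the test of the interaction with RDY234 (edgeR, Benjamini-Hochberg adjusted p, at least 2-fold), for the decay factor genes as for most genes. The members whose response was the stronger fall were 10 of 10 in RDY237, 7 in RDY247, 10 in RDY249, 10 in RDY251 and 10 in RDY73, where 88.1%, 69.8%, 92.8%, 99% and 99.9% of all tested genes passed, so the counts are no result about the members. Relative to the bulk of genes 0, 0, 0, 0 and 1 members passed in the same strains, the one being CDC39 in RDY73. The share of all tested genes that passed on that scale was 3.58%, 2.89%, 2.81%, 7.52% and 14.4%. All 5 counts share the RDY234 libraries, and RDY247, RDY249 and RDY73 belong to the other library series.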

How the results depend on the processing

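The 45 counts of members called were kept within 1.5 times under DESeq2, TMM over the S. pombe genes, no filter and a fit of the groups compared alone. For the other settings, including those that leave out 1 library, only counts that moved further than 1.5 times are listed here. Smaller moves, such as those of the counts of 6 against RDY234 under IAA, are left out of the lists. Scaling by TMM over S. cerevisiae genes takes most of the change of the bulk out of a comparison by its construction. The counts moved for T>C reads in IAA against DMSO (2 in RDY73, 0 in RDY237, RDY247, RDY249 and RDY251), T>C reads against RDY234 under IAA (0 in RDY237, 1 in RDY247 and RDY251, 2 in RDY249), T>C reads against RDY73 under DMSO (0 in RDY236, RDY249 and RDY251), the difference of response from RDY234 (1 in RDY73, 0 in RDY237, RDY247, RDY249 and RDY251), total reads in IAA against DMSO (1 in RDY73, 0 in RDY237, RDY249 and RDY251), total reads against RDY73 under DMSO (2 in RDY234, 1 in RDY235) and RDY251 against RDY237 (0). A filter at a mean of 50 T>C reads left 6 members to call, with counts of T>C reads in IAA against DMSO (6 in RDY73, RDY237, RDY249 and RDY251), T>C reads against RDY234 under IAA (5 in RDY237, 6 in RDY251), T>C reads against RDY73 under DMSO (1 in RDY249 and RDY251), the difference of response from RDY234 (6 in RDY73, RDY237, RDY249 and RDY251), total reads in IAA against DMSO (6 in RDY73 and RDY251, 0 in RDY237, 1 in RDY249) and RDY251 against RDY237 (6). Scaling by the sum of S. pombe T>C reads gave T>C reads against RDY73 under DMSO (0 in RDY236, 1 in RDY249) and total reads in IAA against DMSO (1 in RDY247 and RDY249), and by the sum of S. pombe reads T>C reads against RDY73 under DMSO (0 in RDY236, 1 in RDY249) and total reads against RDY73 under DMSO (2 in RDY251), where the cause was not tested. Leaving out 1 library moved these counts, by comparison: 0 to 1 for T>C, against RDY234 under IAA, RDY236, 0 to 1 for T>C, against RDY73 under DMSO, RDY236, 0 to 1 for T>C, against RDY73 under DMSO, RDY247, 1 to 3 for T>C, against RDY73 under DMSO, RDY249, 1 to 4 for T>C, against RDY73 under DMSO, RDY251, 0 to 3 for total, IAA against DMSO, RDY237, 0 to 1 for total, IAA against DMSO, RDY247, 1 to 4 for total, IAA against DMSO, RDY249, 0 to 1 for total, against RDY73 under DMSO, RDY234, 0 to 1 for total, against RDY73 under DMSO, RDY235, 0 to 1 for total, against RDY73 under DMSO, RDY247, 0 to 1 for total, against RDY73 under DMSO, RDY249 and 0 to 2 for total, against RDY73 under DMSO, RDY251.

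Under TMM over S. cerevisiae genes the sign turned for T>C reads, IAA against DMSO RDY73 (XRN1 0.63), T>C reads, IAA against DMSO RDY237 (XRN1 0.06, DCP1 0.11, DCP2 0.07, PAT1 0.34, LSM1 0.20, CCR4 0.32, POP2 0.07), T>C reads, IAA against DMSO RDY247 (DCP1 0.05, CDC39 0.14), T>C reads, IAA against DMSO RDY249 (DCP2 0.04, PAT1 0.39, DHH1 0.18, LSM1 0.15), T>C reads, IAA against DMSO RDY251 (DCP2 0.52, DHH1 0.21, LSM1 0.62, POP2 0.40, CDC39 0.16), T>C reads, against RDY234 under IAA RDY237 (LSM1 0.42, POP2 0.45), T>C reads, against RDY234 under IAA RDY247 (PAT1 0.09), T>C reads, against RDY234 under IAA RDY249 (DCP2 0.08, PAN2 0.09), T>C reads, against RDY234 under IAA RDY251 (DCP2 0.13, PAT1 0.41, DHH1 0.23, LSM1 0.93, POP2 0.77, PAN2 0.01), total reads, IAA against DMSO RDY73 (DCP2 0.82, DHH1 0.39, POP2 0.14, PAN2 0.25) and total reads, IAA against DMSO RDY251 (DCP2 0.56, DHH1 0.17, LSM1 0.07, CDC39 0.12, PAN2 0.24), all as log2 changes relative to the bulk.

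Replicate letters paired the libraries weakly at most: deviations of same-lettered IAA and DMSO libraries had r of -0.07 to 0.12. With a replicate block the count for T>C reads in IAA against DMSO was 10 in RDY73 and 7 in RDY247, LSM1 being added there, and no other count of members changed. The number of all tested genes called for the response in RDY236 minus that in RDY234 went from 0 to 141, so that background depends on the block. Depth limits the lowest members most, since DCP1 and CCR4 had 0 to 3 T>C reads over the RDY73 and RDY251 IAA libraries.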

Other observations

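The conversion rate of T positions, a value the authors' files give beside the counts and which enters no comparison above, was 0.126 ± 0.0198% in RDY73 IAA and 0.801 ± 0.0716% in RDY73 DMSO for XRN1 (SD, n = 3). For DCP2 it was 0.0998 ± 0.0397% in RDY73 IAA and 2.37 ± 0.224% in RDY73 DMSO. For XRN1 it was 0.854 ± 0.0351% in RDY234 IAA and 0.842 ± 0.17% in RDY234 DMSO.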
